A study of Gallus gallus with 30 samples.

Results

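The fast and developmental myosin heavy chains are the motor proteins of the thick filament in fast skeletal muscle fibres. In the chicken they are encoded by a cluster of closely related genes, and pectoralis fibres are known to express embryonic, neonatal and adult forms in turn as they mature. The genes are so alike in sequence that a microarray probe designed for 1 of them can bind transcripts of another. Their levels were read in Pectoralis major, the large breast muscle of the chicken, which consists mostly of fast fibres.

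Probe sets were chosen by the gene symbol that the platform annotation gives them, which had to be MYH1 with 1 further letter, or MYH1, MYH2, MYH3, MYH4 or MYH13. Of 38439 probe sets on the array, controls left out, 9 carry a single symbol that fits and make up the members. They stand for 5 of 13009 genes with a probe set of their own, MYH13, MYH1B, MYH1C, MYH1D and MYH1E. A further 3 probe sets carry several symbols of which at least 1 fits, and they are given apart. A RefSeq table of the assembly GRCg7b lists 8 genes of this kind in a row on chromosome 18, in the order MYH13, MYH1D, MYH1F, MYH1A, MYH1B, MYH1E, MYH1C and MYH1G, between GAS7 and SCO1. MYH1A, MYH1F and MYH1G have no probe set with their symbol alone.

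Male Arbor Acres broilers, commercial meat birds, were compared with male White Leghorn layers, which are egg birds, at 1 d of age and at 2, 4, 6 and 8 w. Birds of both lines were housed alike and ate the same commercial diet for layers. At each age the muscle RNA of 5 males of a line made up 1 pool, and each pool was put on 3 Affymetrix Chicken Genome Arrays, so that 30 arrays read 10 pools. The pool is the replicate here, with 5 pools per line, and the SD given with a pool mean is that of its 3 arrays and measures technical error only. With 1 pool per line at each age, a single age has no test. All values are log2 signals after RMA, so that a difference of 1 is a 2-fold change, and the level of 1 probe set cannot be set against that of another.

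The array medians lay between 4.08 and 4.19 and the array maxima between 13.68 and 13.89. The labelled tissue was checked against fast fibre markers, of which 4 of 5 were measured. Skeletal actin (ACTA1) lay between 13.66 and 13.79 in all pools and fast troponin T (TNNT3) between 12.94 and 13.35, while parvalbumin (PVALB) stayed between 3.40 and 4.78. Defining cardiac genes were near the bottom of the scale, with NPPA between 2.87 and 3.14 and NKX2-5 between 2.74 and 3.04. In a whole muscle, fewer cells of a type and less RNA per cell cannot be told apart.

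Most of these probe sets may share probes. Of the 9 members, 4 end in _x_at, which marks probe sets with some probes that match other sequences, and 1 ends in _s_at, which marks probes common to several transcripts. MYH1E has Gga.4217.3.S1_at and Gga.4217.3.S1_x_at, here called MYH1E_at and MYH1E_x_at. MYH1D has GgaAffx.21028.1.S1_s_at and Gga.1526.2.S1_at, here called MYH1D_s_at and MYH1D_at, and MYH13 has GgaAffx.511.1.S1_at. The array annotation gives alignments on the minus strand of chromosome 18 in the build WUSTL Gallus-gallus-2.1 for others. From its lists of probe matches only those to RefSeq transcripts with an NM number were read, so that cross matches to other chains can be missing. Gga.4217.5.S1_at (MYH1B_at) aligns at chr18:482481-483636 and was made from a clone of the carboxyl-terminal end, and 11 of its probes are matched to MYH1B with no cross match listed. Gga.4217.5.S1_x_at (MYH1B_x_at) lies on the same stretch and also has 11 probes on MYH1B, with 4 that cross to MYH1A. Gga.4217.6.S1_x_at, the only MYH1C member, came from the 3 prime UTR of a fast chain and aligns at chr18:592808-598618 and also at chr18:437920-442965, within 1 of the stretches to which the HCIII probe set described next aligns (chr18:437920-454326), with 8 probes that cross to MYH1A and 4 that cross to MYH1B.

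The last MYH1B member, Gga.4217.4.S1_x_at, aligns over chr18:437938-612846, a stretch for which the annotation gives the titles of several heavy chains. Its target is the fast chain HCII, N101, and it is called MYH1B-N101 here. RefSeq gives N101 as another name of MYH1G, so that the symbol on the platform and the target differ. Of the probe sets with several symbols, Gga.4217.1.S1_a_at (MYH1C, MYH1A and MYH1B) targets the chain HCIII, with 11 probes on MYH1A and 11 on MYH1B, and is called HCIII. Gga.4217.2.S1_at (MYH1F/MYH1B) aligns at chr18:384659-401530, where the array annotation names a perinatal chain. Gga.3685.1.S1_at carries 6 symbols, those of MYH1A to MYH1F, and is called the 6-symbol probe set.

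Heavy chains passed the tests of age but none of the members passed that of line. MYH1E was near the array median at 1 d and near the array maximum from 2 w on in both lines. The MYH1B, MYH1C and bright MYH1D probe sets went the other way and were highest at 1 d. At 6 w and 8 w the signals of MYH1B and MYH1C were higher in the broiler pools than in the layer pools, and that of the MYH1F/MYH1B probe set was lower. The plot of levels by age shows all 12 probe sets.

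**Figure D1:**
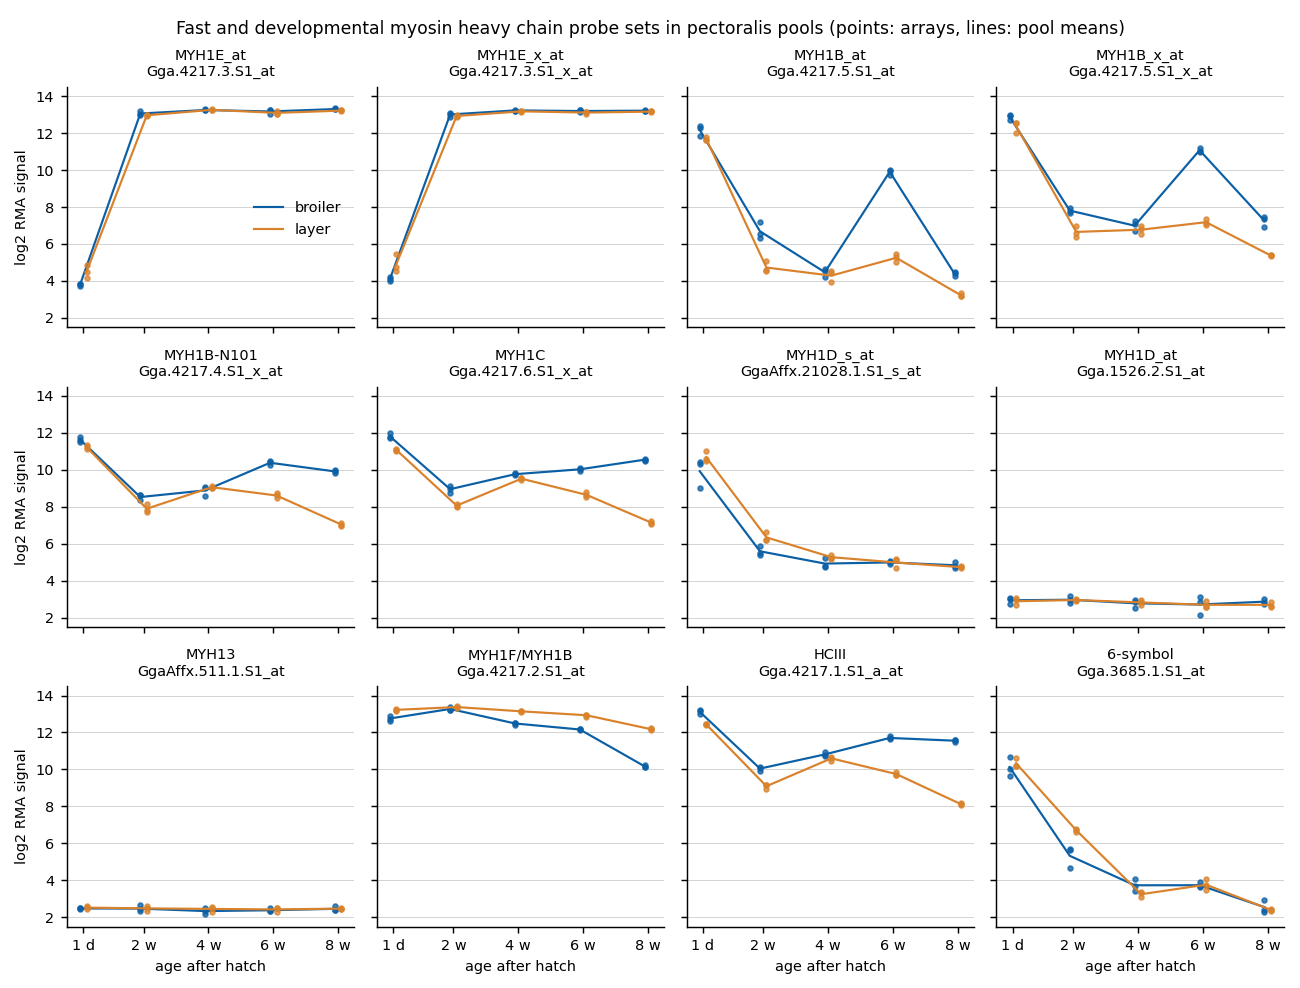
Log2 RMA signal (y axis) of the 12 probe sets by age after hatch (x axis, to scale), with broilers in blue and layers in orange; each point is 1 array and the lines join pool means. Both MYH1E probe sets lie at 5.45 or less at 1 d and at 12.89 or more at every later age. After 1 d, MYH1B_at of MYH1B is highest at 6 w in both lines, with 9.91 in broilers and 5.25 in layers.

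MYH1E gave the largest change after 1 d of all probe sets. Its probe set MYH1E_at read 3.79, 13.06, 13.25, 13.17 and 13.30 in broilers at the 5 ages, youngest first. In layers it read 4.50, 12.96, 13.26, 13.09 and 13.22. No array of a later age came near an array of 1 d in either line, and from 2 w all pools of both lines lay close together. By 2 w the signal was 616-fold higher than at 1 d in broilers and 353-fold higher in layers. The 1 d levels stood at percentile 42.9 of all probe sets in the broiler pool and at percentile 56.6 in the layer pool, and all later levels stood above percentile 99.9. Whether the 1 d signal was above background was not assessed here, and the later signal lies close to the highest on the arrays. MYH1E_x_at, the other MYH1E probe set, read 4.10, 13.01, 13.23, 13.19 and 13.21 in broilers and 4.91, 12.93, 13.18, 13.11 and 13.16 in layers. The mean of the later ages exceeded 1 d by 9.02 ± 0.15 for the first (SE, limma, adjusted p = 8.8e-09) and by 8.62 ± 0.16 for the second (SE, limma, adjusted p = 1.1e-08). These are the changes of ranks 1 and 2 in size among 38439 probe sets, and of ranks 1 and 3 in p.

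MYH1B had its highest signal at 1 d. The probe set with no listed cross match, MYH1B_at, read 12.18, 6.69, 4.47, 9.91 and 4.39 in broilers at the 5 ages. Its levels in layers were 11.69, 4.73, 4.29, 5.25 and 3.22. Both lines were high at 1 d, and afterwards the broiler pool of 6 w stood apart from all others, with its 3 arrays between 9.73 and 10.02. The drop by 2 w was 44.9-fold in broilers and 125-fold in layers. In broilers the signal of 6 w was 43.3-fold that of 4 w and 45.9-fold that of 8 w. In layers 6 w was also the highest of the later ages, by a smaller margin, at 5.25 here and 7.18 by MYH1B_x_at. The layer level of 2 w and the broiler levels of 4 w and 8 w lay near the array median. They were not shown to be above background, so the size of folds taken on them is uncertain. MYH1B_x_at showed the same course with smaller folds, with 12.89, 7.81, 6.99, 11.07 and 7.26 in broilers and 12.39, 6.65, 6.77, 7.18 and 5.37 in layers. By this probe set the drop by 2 w was 33.9-fold in broilers and 53.1-fold in layers. Its broiler signal of 6 w was 16.9-fold that of 4 w and 14.1-fold that of 8 w. The later ages were below 1 d by 6.57 ± 0.67 for MYH1B_at (a log2 change of -6.57, limma, adjusted p = 9.6e-05) and by 5.25 ± 0.55 for the other (-5.25, adjusted p = 0.00011). That of MYH1B_at was the largest decrease of all probe sets, at rank 3 in size over both directions.

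MYH1B-N101 and MYH1C were also highest at 1 d, and at 4 w and 8 w they stayed brighter relative to 1 d than the other MYH1B members. MYH1B-N101 read 11.63, 8.52, 8.88, 10.38 and 9.91 in broilers and 11.23, 7.89, 9.06, 8.61 and 7.03 in layers. MYH1C read 11.81, 8.95, 9.76, 10.02 and 10.54 in broilers. In layers its levels were 11.07, 8.06, 9.52, 8.64 and 7.14. Both probe sets were lowest at 2 w in broilers but lowest at 8 w in layers. MYH1C was higher at each step after 2 w in broilers, with no overlap of the arrays of successive ages, whereas in layers it was higher at 4 w and then lower at 6 w and at 8 w. MYH1B-N101 in broilers peaked at 6 w among the later ages, like MYH1B_at and MYH1B_x_at, and the step to 8 w was -0.47. Over both lines the later ages were lower than 1 d, with a change of -2.64 ± 0.46 for MYH1B-N101 (SE, limma, adjusted p = 0.0021) and of -2.36 ± 0.46 for MYH1C (SE, limma, adjusted p = 0.0040).

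The probe sets of MYH1D differed in signal. MYH1D_s_at read 9.92, 5.59, 4.92, 4.98 and 4.83 in broilers and 10.68, 6.34, 5.27, 4.98 and 4.73 in layers. It was high only at 1 d, and the 3 arrays of the broiler pool at 1 d spread widely, between 8.99 and 10.45. Its later levels were lower by a log2 change of -5.09 ± 0.18 (SE, limma, adjusted p = 3.3e-07). The other, MYH1D_at, stayed between 2.69 and 2.97 in all pools, with a change of -0.10 ± 0.06 (SE, limma, adjusted p = 0.19). MYH13, which in mammals is known as a chain of the eye muscles, also stayed near the bottom of the scale, between 2.34 and 2.52 in all pools, with a change of -0.07 ± 0.05 (SE, limma, adjusted p = 0.28).

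Among the probe sets with several symbols, the 6-symbol probe set read 10.13, 5.33, 3.73, 3.74 and 2.55 in broilers and 10.34, 6.71, 3.25, 3.76 and 2.40 in layers. It fell after 1 d by 6.30 ± 0.27 on the log2 scale (limma, adjusted p = 9.2e-07). HCIII read 13.12, 10.05, 10.81, 11.70 and 11.55 in broilers and 12.44, 9.09, 10.60, 9.75 and 8.12 in layers, with a change after 1 d of -2.57 ± 0.48 (SE, limma, adjusted p = 0.0031). The MYH1F/MYH1B probe set was the only 1 of the 12 that was bright at 1 d and highest at 2 w. It read 12.76, 13.27, 12.49, 12.16 and 10.16 in broilers. In layers it read 13.22, 13.37, 13.14, 12.93 and 12.17. The broiler level of 2 w and the layer levels up to 4 w lay close to the array maximum. Whether the scale limits its differences there was not tested. The mean of its later levels was 0.53 ± 0.27 below that of 1 d, a log2 change of -0.53 that did not pass (limma, adjusted p = 0.16). At 2 w alone it was above 1 d by 0.33, and without the pools of 2 w the change was -0.81 (adjusted p = 0.042).

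Between the later ages and 1 d, 7 of 9 members passed, 2 higher and 5 lower, against 17.1% of all probe sets higher and 17.9% lower. The median change was -2.36 over the 9 members and 0.05 over all 38439 probe sets. A test for any change over the 5 ages called the same number, 7 of 9 members, and all 3 probe sets with several symbols, against 19.8% of all probe sets. The members not called were MYH13 and the dim MYH1D probe set. Those called are probe sets of MYH1B, MYH1C, MYH1D and MYH1E. Several read the same gene and some may share probes, so they are not independent of each other. The 1 d side holds 1 pool per line.

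**Figure D2:**
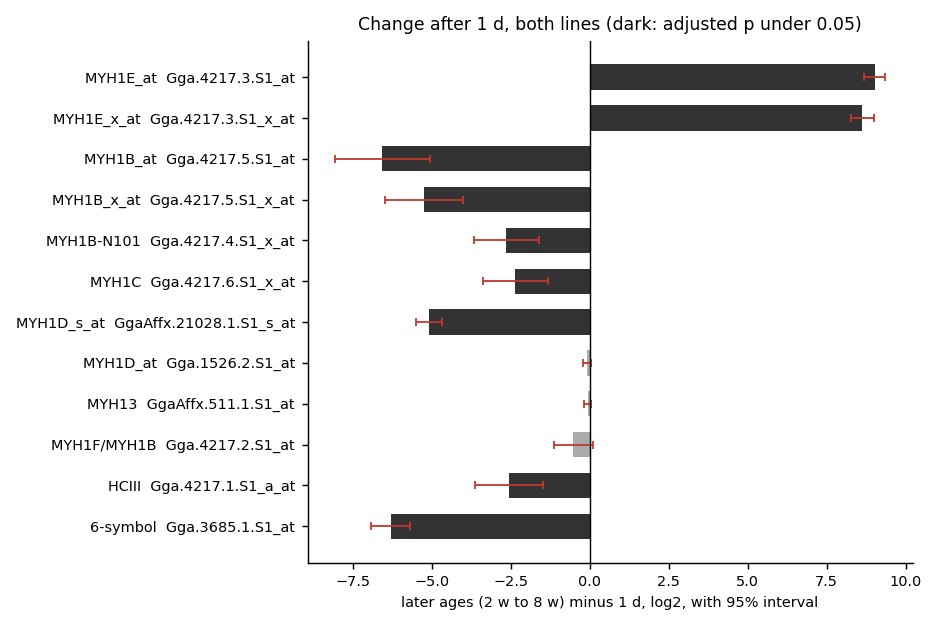
Mean of the pools of 2 w to 8 w minus the mean of the 1 d pools of both lines (x axis, log2, bars) with 95% intervals (red), for the 12 probe sets (y axis); dark bars passed an adjusted p of 0.05. The bars of MYH1E reach 9.02 and 8.62, and those of MYH1B go down to -6.57.

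Marker lists of other tissues also moved after 1 d, as did much of the array, with 17.1% of all probe sets called higher and 17.9% lower. All 5 of 5 fibroblast and matrix markers were lower at the later ages, and their summed linear signal in broilers was 26232 at 1 d and 12936 to 17929 later. In layers the sum was 26164 at 1 d and 14645 to 17543 later. Of 4 red blood cell markers 2 were measured and both were lower, with sums in broilers of 4590 at 1 d and 1340 to 4118 later, and in layers of 4386 at 1 d and 964 to 2582 later. Of the 2 macrophage markers, CD74 rose by 2.93, while the change of -0.09 for CSF1R did not pass (limma, adjusted p = 0.74), and the sums, carried by CD74, were 537 and then 2055 to 4588 in broilers, and 907 and then 2033 to 4241 in layers. The Schwann cell marker MBP fell by 2.27 (a log2 change of -2.27), the only 1 measured of 3. Of 3 adipocyte markers FABP4 and PLIN1 were higher, by 1.00 and 0.34, and single markers of the endothelium (CDH5, -0.73, 1 of 3), of cartilage (COL9A3, -1.88, 1 of 6) and of satellite cells (MYF5, -1.01, 1 of 2) were lower. Of the 4 slow fibre markers TNNC1 was higher by 2.84 and MYL3 and TNNI1 were lower. The part of these markers in the changes of the heavy chains was not tested.

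No member passed the test of the difference between the lines. MYH1B and MYH1C had the largest estimates, all higher in broilers, and the MYH1F/MYH1B probe set was lower in broilers. The average difference over the 5 ages, broilers minus layers, was 1.69 ± 0.53 for MYH1B_at, 1.53 ± 0.44 for MYH1B_x_at and 1.10 ± 0.37 for MYH1B-N101 (SE; limma, adjusted p = 0.18, 0.14 and 0.20). MYH1C differed by 1.33 ± 0.37 (SE; limma, adjusted p = 0.13) and HCIII by 1.45 ± 0.38 (SE; limma, adjusted p = 0.11). For the MYH1F/MYH1B probe set the difference was -0.80 ± 0.22 (SE; limma, adjusted p = 0.12). In size these estimates held ranks 22, 30, 76, 49, 34 and 213 of 38439. In all, 0 of 9 members passed with limma, and 5 had an unadjusted p under 0.05, as did 14.3% of all probe sets. These 5 are the members of MYH1B and MYH1C, which may share probes, and the bright MYH1D probe set. The study's methods name an analysis of variance, which was refitted here on 30 arrays with line as its only term. At the study's thresholds this refit called 1 member and 1.05% of all probe sets. The study's own list of genes that differ between the lines holds MYH1B_at, MYH1B_x_at, MYH1B-N101, MYH1C, HCIII and the MYH1F/MYH1B probe set. With limma 0.63% of all probe sets were called higher in broilers and 0.723% lower. The median difference was 0.04 over the 9 members.

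The size of these differences depended on single ages. Without the pools of 6 w the difference of MYH1B_at was 0.95 and that of MYH1B_x_at 0.94. Without the pools of 8 w it was 0.81 for MYH1C, 0.66 for MYH1B-N101, 0.95 for HCIII and -0.50 for the MYH1F/MYH1B probe set. The direction was the same at every age for some. MYH1C, MYH1B_at, MYH1B_x_at and HCIII were higher in broilers at all 5 ages, as were 6.68% of all probe sets. The MYH1F/MYH1B probe set was lower in broilers at all 5 ages, as were MYH13, with differences of -0.12 to -0.01, and 6.33% of all probe sets.

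At 1 d the arrays of the lines did not overlap for several chains. MYH1C read 11.81 ± 0.14 in the broiler pool and 11.07 ± 0.07 in the layer pool, 1.67-fold higher in broilers (SD of 3 arrays), and the MYH1F/MYH1B probe set read 12.76 ± 0.13 in broilers and 13.22 ± 0.05 in layers. The arrays of MYH1E_at lay between 3.73 and 3.83 in broilers and between 4.16 and 4.84 in layers, but these levels are around the array median and were not shown to be above background, so that no fold is given. The bright MYH1D probe set was lower in broilers by 0.76 at 1 d and by 0.75 at 2 w on the log2 scale, and the differences were 0.00 at 6 w and 0.10 at 8 w. At 1 d its arrays read 8.99, 10.32 and 10.45 in broilers and 10.46, 10.56 and 11.02 in layers, so that the size of the difference rests largely on 1 broiler array and the other two come close to the layer arrays. Its average difference of -0.35 ± 0.14 did not pass (SE; limma, adjusted p = 0.29). At 4 w MYH1C differed by 0.24, the MYH1F/MYH1B probe set by -0.66 and the 6-symbol probe set by 0.48, each with no overlap of the arrays. MYH1B_at differed by 0.18, and its arrays did overlap. The 6-symbol levels at 4 w, 3.73 in broilers and 3.25 in layers, were below the array median, and those of MYH1B_at were near it. Neither was shown to be above background. Of 5 slow fibre markers 4 were measured, and at this age 3 of them were lower in the broiler pool, with MYL3 at 2.83 in broilers and 7.13 in layers, TNNI1 at 2.74 in broilers and 5.44 in layers, and MYH7B at 4.40 in broilers and 7.90 in layers. The other measured marker, TNNC1, was at 13.05 in broilers and 12.84 in layers, and with it the summed signal of the list at 4 w was 8517 in broilers and 7767 in layers. Over the 5 ages the sum was 1444 to 8728 in broilers and 1269 to 8396 in layers, and the part of these markers in the heavy chain values was not tested.

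The gap was widest at 6 w for MYH1B_at and MYH1B_x_at, and at 8 w for MYH1B-N101, MYH1C, HCIII and the MYH1F/MYH1B probe set. At 6 w the arrays of MYH1B_x_at gave 11.07 ± 0.09 in broilers and 7.18 ± 0.15 in layers, a 14.9-fold difference. MYH1B_at differed by 4.65, the difference of rank 4 in size among all probe sets at that age. At 8 w MYH1B-N101 gave 9.91 ± 0.07 in broilers and 7.03 ± 0.08 in layers, a 7.34-fold difference, and MYH1C differed by 3.40 at rank 9. HCIII gave 11.55 ± 0.05 in broilers and 8.12 ± 0.07 in layers, 10.8-fold apart. On the other side, the MYH1F/MYH1B probe set gave 10.16 ± 0.06 in broilers and 12.17 ± 0.05 in layers at 8 w, 4.03-fold lower in broilers, at rank 34 of that age. Between 15.6% and 21.3% of all probe sets had arrays of the lines that did not overlap at a given age, so that the lack of overlap alone sets no probe set apart.

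**Figure D3:**
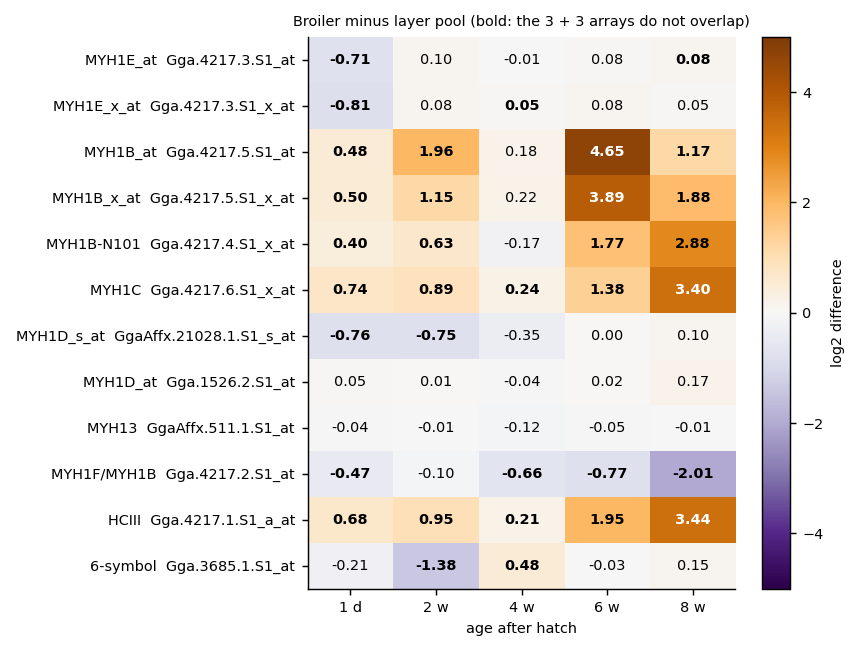
Broiler pool minus layer pool (colour and number, log2 difference) for the 12 probe sets (rows) at 5 ages (columns); bold numbers mark ages where the 3 arrays of one line do not overlap those of the other. The values reach 4.65 at 6 w for MYH1B and -2.01 at 8 w for the MYH1F/MYH1B probe set.

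The signals of MYH1E lay near the array median at 1 d and close to the array maximum later, and whether the scale limits its line difference there was not tested. Its average difference was -0.09 (95% interval -0.36 to 0.17) by MYH1E_at and -0.11 (-0.40 to 0.18) by the other probe set. From 2 w the differences lay between -0.01 and 0.10 for both. The difference at 1 d minus that of the later ages was -0.77 ± 0.15 and -0.88 ± 0.15 (SE; limma, adjusted p = 0.12 and 0.062). None of the 9 members passed this test with limma, and 0.294% of all probe sets passed. An unadjusted p under 0.05 was found for 2 members and 7.96% of all probe sets. The second MYH1E probe set did pass without the arrays numbered 2 (-1.02, adjusted p = 0.044) or 3 (-1.05, adjusted p = 0.045) of every pool. Without the arrays numbered 1 it did not pass, and the estimate was -0.56, the smallest of the alternatives run. Its layer arrays of 1 d read 5.45, 4.74 and 4.54, so the size of this estimate rests largely on 1 layer array.

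Between 2 w and 8 w no slope with age passed the test, and 3 bright or once bright probe sets had the smallest p. The slope common to the lines was -0.52 ± 0.10 per week for the 6-symbol probe set (SE; limma, adjusted p = 0.087), -0.34 ± 0.06 for the MYH1F/MYH1B probe set (SE; limma, adjusted p = 0.088) and -0.18 ± 0.04 for the bright MYH1D probe set (SE; limma, adjusted p = 0.14). The 6-symbol probe set passed without the pools of 4 w, with a slope of -0.59 (adjusted p = 0.0041). Without the pools of 2 w its slope was only -0.25, and that of the bright MYH1D probe set was -0.08. Without the pools of 8 w the slope of the MYH1F/MYH1B probe set was -0.19. These were the smallest slopes of the alternatives run, so their size depended on the pools of 2 w or 8 w. From 4 w on the levels of the 6-symbol probe set were below the array median, so its slope rests in part on levels not shown to be above background. For MYH1E_at the slope was 0.03 ± 0.02 per week (SE; limma, adjusted p = 0.55). For this slope 0 of 9 members passed with limma, as did 0.161% of all probe sets, and 2 members had an unadjusted p under 0.05, as did 9.93% of all probe sets.

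MYH1C, MYH1B-N101 and HCIII were higher at 8 w than at 2 w in broilers and lower in layers. The level of MYH1B-N101 at 8 w minus that at 2 w was 1.39 in broilers and -0.86 in layers. The slope in broilers minus that in layers was 0.43 ± 0.17 per week for MYH1C and 0.43 ± 0.17 for MYH1B-N101, and -0.29 ± 0.09 for the MYH1F/MYH1B probe set (SE; limma, adjusted p = 1.00 each, unadjusted p = 0.029, 0.033 and 0.010). With limma 0 of 9 members passed, 2 of them had an unadjusted p under 0.05, and 0% of all 38439 probe sets passed, of which 885 (2.3%) had an unadjusted p under 0.05.

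Some probe sets had like patterns, and several of the pairs given here share a gene symbol. HCIII also carries the symbols of MYH1C and MYH1B, and the 6-symbol probe set also carries that of MYH1D. Over the 10 pools Pearson's r was 0.968 between MYH1B-N101 and MYH1C, and 0.993 between MYH1C and HCIII. Over the 8 later pools it was 0.939 and 0.985. Within MYH1B, MYH1B_at and MYH1B-N101 had r = 0.863 over 10 pools and 0.632 over the 8 later pools, and MYH1B_at and MYH1B_x_at had 0.991 and 0.970. The bright MYH1D probe set had r = 0.966 with the 6-symbol probe set, and 0.937 over the later pools, and -0.974 with MYH1E_at of MYH1E. These values share arrays and in part probes, and are given as a description.

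**Figure D4:**
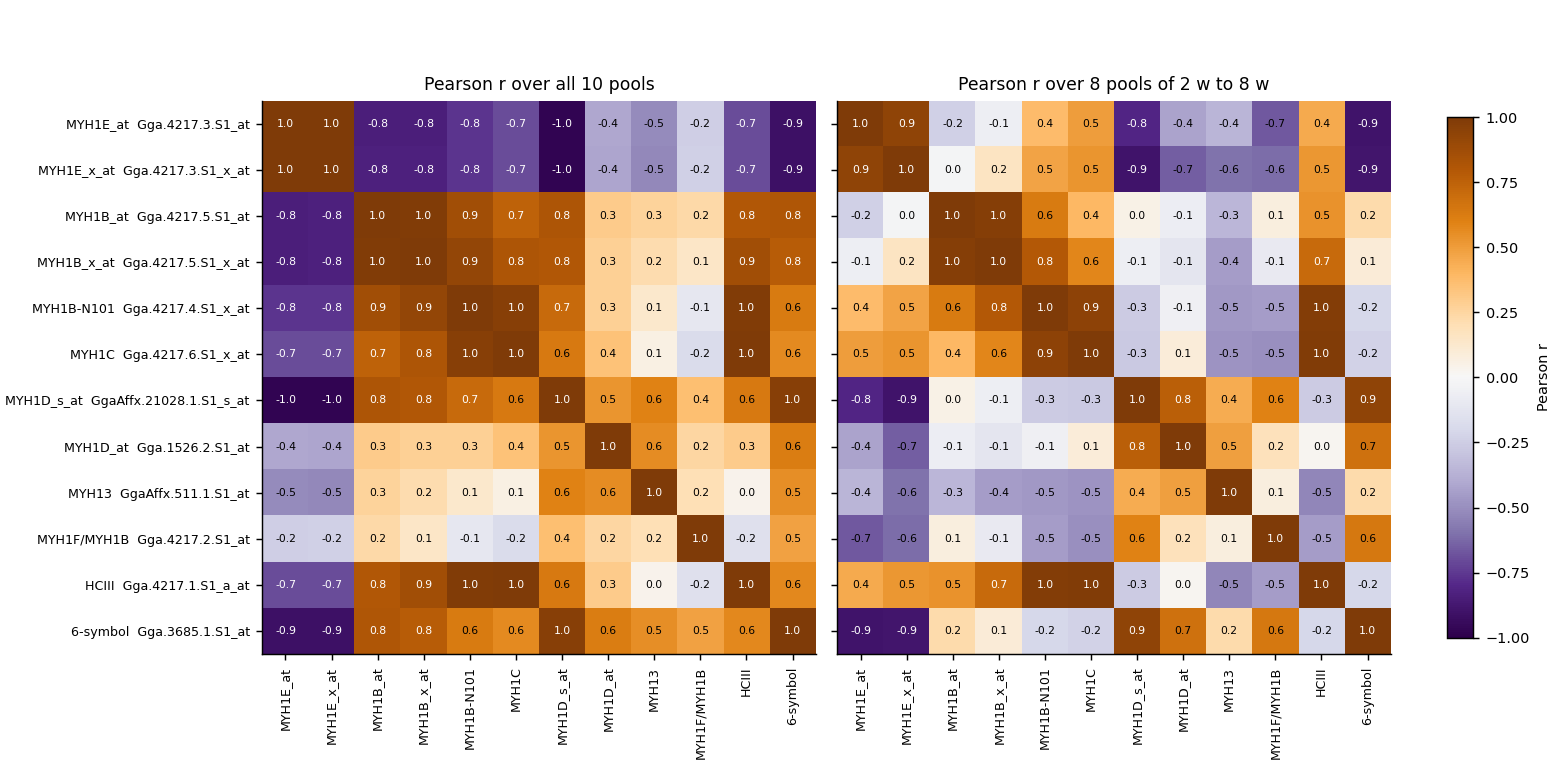
Pearson's r between the pool means of the 12 probe sets over all 10 pools (left) and over the 8 pools of 2 w to 8 w (right); colour and number give r, and rows and columns are probe sets. MYH1C, MYH1B-N101 and HCIII stay at 0.939 or more with each other in both panels, while MYH1C and MYH1B_at have 0.746 on the left and 0.398 on the right.

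The genes outside the family most like each chain over the 10 pools were found among 14904 probe sets. For MYH1E they were BPGM, an enzyme of the red cell that acts on a glycolytic intermediate (r = 0.999), PARK7, an oxidative stress protein (r = 0.997), and ME1, the cytosolic malic enzyme (r = 0.997). For the bright MYH1D probe set they were CLEC19A (r = 0.998), ATN1 (r = 0.995) and CBFB, a subunit of a transcription factor (r = 0.994). MYH1E and this MYH1D probe set differed mainly between 1 d and later ages, so these values of r rest largely on the 2 pools of 1 d. MYH1C was most like PRMT5, an arginine methyltransferase (r = 0.948), LEUTX (r = 0.944) and ANGPT4 (r = 0.935), and MYH1B-N101 of MYH1B was most like PM5 (r = 0.957), ANGPT4 (r = 0.951) and KAZALD1 (r = 0.950). These genes moved far less than the chains. PRMT5 ran from 7.02 to 7.77, LEUTX from 4.15 to 4.67 and ANGPT4 from 5.07 to 5.95. PM5 ran from 5.42 to 5.96 and KAZALD1 from 4.41 to 4.92. MYH13, whose range was 0.19, was most like PM20D2 (r = 0.897), BOD1L1 (r = 0.896) and HECTD3 (r = 0.895). For MYH1B_at and the MYH1F/MYH1B probe set, added after their values were seen, the genes were TMED10 (r = 0.968), ACTR10 (r = 0.964) and JUP (r = 0.955) for the first, and PPDPF (r = 0.972), POP5 (r = 0.936) and FAT1 (r = 0.880) for the second.

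Partners of the heavy chains in the sarcomere were read from lists. Of 9 light chain and thin filament genes, 4 were higher after 1 d and 1 was lower, with a median change of 0.26. Of all probe sets 17.1% were called higher after 1 d and 17.9% lower. Fast troponin I (TNNI2) rose by 0.40 and tropomyosin TPM1 by 0.48, while tropomyosin TPM2 changed by -2.04. MYLPF, the fast regulatory light chain that binds the neck of the heavy chain, was the member of this list that differed between the lines. It read 12.27, 12.60, 12.77, 12.56 and 12.53 in broilers and 11.56, 11.80, 12.11, 11.35 and 11.67 in layers, with no overlap of the pools, and was higher in broilers by 0.85 ± 0.08 (SE; limma, adjusted p = 0.0043).

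Of 7 measured thick filament partners, 1 was higher and 3 were lower after 1 d, against 17.1% of all probe sets higher and 17.9% lower. MYBPC2, the fast form of myosin binding protein C, rose by 0.56, and MYBPC1, the slow form, changed by -4.42, MYOM3 by -2.04 and MYBPC3, the cardiac form in mammals, by -2.46 (limma, adjusted p = 0.020, 0.00089, 0.0013 and 0.00058). MYBPC3 was higher in broilers, with 8.46, 8.45, 6.96, 6.48 and 5.74 in broilers and 8.35, 7.11, 4.84, 4.50 and 3.46 in layers, a difference of 1.57 ± 0.27 (SE; limma, adjusted p = 0.031).

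Most genes of myosin folding were higher after 1 d. Of 5 such genes, 4 rose, against 17.1% of all probe sets, with a median change of 1.34 over all 5. The myosin chaperone UNC45B rose by 1.41 ± 0.13, HSP90AA1 by 1.89 ± 0.17, its co-chaperone AHSA1 by 1.34 ± 0.10 and NACA, which binds nascent chains, by 0.55 ± 0.10 (SE; limma, adjusted p = 6.5e-05, 4.2e-05, 2.0e-05 and 0.0023). SMYD1, a methyltransferase needed for myosin assembly in zebrafish, was lower in broilers by 0.66 ± 0.13 (a log2 difference of -0.66, limma, adjusted p = 0.045), and its change after 1 d was -0.26 (limma, adjusted p = 0.24).

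Heavy chains of other muscle types formed further lists. Of 5 slow and cardiac chains 3 were measured and none passed for line or age, although MYH7B read 5.01, 4.35, 4.40, 4.54 and 4.64 in broilers and 6.63, 4.37, 7.90, 4.40 and 4.20 in layers. A further list held slow fibre genes chosen by the study on these samples and CSRP3, which the study groups with satellite cell proliferation and hypertrophy. Of its 6 genes 5 were measured. Lower after 1 d were 3 of them, TNNI1 by -1.93, MYL3 by -3.52 and CSRP3 by -5.27. Smooth and non-muscle chains were measured for 3 of 4 genes, and all 3 were lower after 1 d, MYH10 by -1.36, MYH11 by -0.90 and MYH9 by -0.73. Of 9 measured myogenic factors, MYOG and MEF2D were higher after 1 d, by 0.57 and 0.56, and MYF5, MEF2C and EYA1 were lower, by -1.01, -0.77 and -0.32. Beside the counts of these lists, 17.1% of all probe sets were called higher after 1 d and 17.9% lower.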

How the data were processed

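The muscle RNA of 10 pools was read on 3 arrays each. The authors deposited log2 values made by RMA. They also made present calls by MAS5, but these are not used here. Neither version is given in the sources used here. The 96 controls were dropped. Arrays of a pool are technical repeats, so their mean was taken, and 10 pool means entered linear models of line and age in limma 3.58.1 (R 4.3.3; eBayes with a trend in intensity), with p-values adjusted by Benjamini-Hochberg over 38439 probe sets and called under 0.05. Further models held the difference at 1 d, or slopes with age. With 1 pool per line and age, the p-values rest on how far the pools depart from the fitted terms, not on repeated pools. In the test of line, a line difference that changes with age adds to this spread. The small number of pools limits precision. The models were tested on simulated data.

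Every probe set that fits the symbol rule, alone or with other symbols, is named. For each gene the brightest member was set against all probe sets of other genes brighter than the median, and the 3 most alike were named. Of the lists, genes past the threshold are named, and those whose values stand beside a result. Members and lists were chosen with earlier results of these data known. Symbols come from the platform table and gene order from RefSeq (GRCg7b). Alignments and probe matches come from the array annotation, read only for probe sets on the study's list of genes that differ between the lines. Alternatives changed the unit of replication, the normalization, filters, the variance prior and the arrays or ages included.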

Additional observations from a re-analysis of the deposited data

Results flagged for a closer look

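In 3 probe sets the broiler pools and the layer pools differed in opposite directions between 8 w and 2 w, with no overlap of the 3 arrays at 8 w with those at 2 w in either line. The 8 w level of MYH1C minus that of 2 w was 1.60 in broilers and -0.92 in layers. For MYH1B-N101 it was 1.39 in broilers and -0.86 in layers, and for HCIII 1.51 in broilers and -0.97 in layers. With 1 pool for each line and age, this difference was not tested between these ages. The nearest test, that of the slopes over 4 ages, gave an adjusted p of 1.00 for each with limma. The 3 probe sets may share probes and are not independent of each other. How many of all 38439 probe sets meet the same rule was not counted. The 15.6% to 21.3% of all probe sets with arrays that did not overlap between the lines at a given age are another comparison. They give no share for this rule, so whether 3 probe sets are many was not assessed.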

How the results depend on the processing

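With the 30 arrays as independent samples, with the array number as a replicate block, or with the pool as a random block, the members called became 4, 4 and 4 for line, 2, 2 and 2 for the line difference of 1 d against later ages, and 2, 2 and 1 for the slope. Array numbers mark repeats of 1 pool and pair no birds, and the first 2 of these fits take technical arrays as samples. The fit with the pool as a random block lets the arrays of a pool be correlated, by 1 value shared by all probe sets. At the thresholds of the study 2 members were called for line, where the count over all probe sets is not given here. For the difference at 1 d these thresholds called 2 members and 790 of all 38439 probe sets, and for the slope 1 member and 528. The refit of the methods' analysis of variance, with line alone, called 1 member for line and 1.05% of all probe sets. Leaving out an array number gave 0 to 1 members for the difference at 1 d, with no count over all probe sets given here. The later ages against 1 d called 7 members in every setting run, the change over 5 ages 5 to 8, and the difference of slopes 0. Over all probe sets, 520 line calls became 3404 to 4412 in the array fits, 294 without arrays numbered 2, 17 with no age term and 128, 168, 170 and 215 when 2 w, 4 w, 6 w or 8 w was dropped. The 7600 calls over the 5 ages became 13940 to 16708 in the array fits, and the 13435 of later ages against 1 d became 5792 at the study's thresholds. The 113 calls of the difference at 1 d became 920 to 1222 in the array fits, 790 at the study's thresholds, 46 with no trend, 57 when 8 w was dropped and 8 above the median signal. The 62 slope calls became 1041 to 1934 in the array fits, 528 at the study's thresholds, 35 above the median signal and 11, 140 and 1 when 2 w, 4 w or 8 w was dropped. The slope difference, with 0, became 17 to 45 in the array fits, 87 at the study's thresholds and 1 without 8 w. Signs turned for line in MYH1D_at, which ran between -0.0804 and 0.116 as array numbers were left out, and when an age or array number was left out in MYH1E_at (-0.149 to 0.0618), MYH1E_x_at (-0.161 to 0.0667) and the 6-symbol probe set (-0.367 to 0.0990), at the upper end without 1 d for MYH1E and without 2 w for the 6-symbol probe set. For 2 w alone against 1 d they turned in MYH1D_at (0.0494) and MYH1F/MYH1B (0.33). Among single probe sets 486 values kept direction and side of the threshold and 54 passed it only in the alternative. The cause was not tested.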

Other observations

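The broiler pool of 6 w, which held the highest late MYH1B signal, also stood apart in genes singled out after their values were seen. MYBPC1, the slow form of myosin binding protein C, read 4.58 ± 0.02 there (SD of 3 arrays), the lowest of the 10 pools, against 7.28 ± 0.12 in the layer pool of 6 w, and 7.10 and 7.53 in the broiler pools of 4 w and 8 w. MYOD1, a myogenic regulator, read 9.65 ± 0.08 in that pool, also the lowest of the 10, and 10.37 ± 0.04 in layers of 6 w. MBP, a myelin protein, read 6.64 ± 0.22 there, again the lowest of the 10, and 8.51 ± 0.08 in layers of 6 w. These are values of single pools. How many of all probe sets have their lowest or highest level in this pool was not counted, and a link to the MYH1B signal was not tested.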
